A study of Mus musculus with 52 samples.

Results

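Angptl4 and Pdk4 are a pair of lipid and fuel handling genes that were described here across all 13 groups of cultured mouse bone marrow stromal cells. They are 2 of the 22180 genes that had a probe set annotated to a single gene symbol, and both belong to the 14911 genes tested. Each had 1 such probe set, 17343628 for Angptl4 (Entrez gene 57875) and 17464654 for Pdk4 (Entrez gene 27273). They were chosen by measured values of these arrays, as genes that nuclear receptor ligands raise early, and the values used are taken here to be the day 1 differences from vehicle. Those differences are therefore described without a test and support nothing. The day 1 vehicle arrays also enter the tests against naive cells and day 4 vehicle. Tests that use them are not independent of the choice of genes. Angptl4 fitted that grouping: on day 1 its 20 arrays with a chemical all lay above all 4 vehicle arrays. Pdk4 did not: on day 1 its arrays with each chemical overlapped those of vehicle, and the higher Pdk4 readings were on day 4.

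Angptl4 encodes angiopoietin-like 4, a secreted inhibitor of lipoprotein lipase, the enzyme that frees fatty acids from circulating triglyceride. Pdk4 encodes pyruvate dehydrogenase kinase 4, a mitochondrial kinase that switches off the pyruvate dehydrogenase complex and so spares glucose while fatty acids are burned. Both genes are textbook targets of the peroxisome proliferator-activated receptors (PPARs), which bind DNA together with retinoid X receptors (RXRs) and respond to fatty acids and drugs. Glucocorticoids raise Pdk4 in several tissues, insulin lowers it, and Angptl4 is also known to rise in hypoxia.

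The cells came from female C57BL/6J mice aged 8 weeks. Marrow of 2 to 4 animals was mixed to make a pool, and the 4 pools (numbered 12, 15, 19 and 20 in the labels) each gave 1 array to every group, 52 arrays in all. Naive cultures were harvested undifferentiated, before the change to bone-forming medium 7 days after plating. That medium, which all other groups received, held ascorbate, β-glycerol phosphate, insulin at 0.5 µg/ml and dexamethasone, a synthetic glucocorticoid, at 10 nM. With it the cells received vehicle (DMSO, 0.1%), Rosi (rosiglitazone, a drug that activates PPARγ, 100 nM), LG268 (a synthetic RXR ligand, 100 nM), TBT (tributyltin, an organotin that binds both PPARγ and RXR, 80 nM), TPhP (triphenyl phosphate, a flame retardant and plasticiser) or MEHP (a phthalate metabolite). The labels used here carry no dose for TPhP or MEHP, so differences between chemicals below are between the cultures as treated and not at matched doses. RNA was taken on day 1 or day 4. The design asks how these chemicals act on the cultures during bone-forming induction. Both genes were read from RNA of the whole mixed culture, so more RNA per cell and more cells that hold the RNA cannot be told apart.

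All values are log2 array readings, so a difference of 1 is a doubling. Between-array medians ran from 3.97 to 4.15, and the median of the whole table was 4.05. Both genes were read above that median on all 52 arrays, Angptl4 from 7.67 to 11.10 and Pdk4 from 8.14 to 10.60. All 9 measured stromal markers and all 9 macrophage markers were above it too in every group. So were 3 of 6 skeletal and cardiac muscle markers, so a reading above the median does not by itself show which cells were present. The day 4 vehicle array of pool 12 stood apart from the other vehicle arrays. The mean of 13 hypoxia target genes, centred on all arrays, was 0.96 there against 0.23, -0.34 and -0.19 in pools 15, 19 and 20. Its mean of 23 fat cell genes was the lowest of the 4 at -1.86, against -1.11, -0.66 and -0.40. The differences of Angptl4 and Pdk4 from day 4 vehicle are therefore given with and without that array, and those of other genes where leaving it out changed a call or moved a count of calls by over 1.5 times.

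The RefSeq promoter table matched 1 of the 2 genes, Pdk4, and not Angptl4. The 250 bases before the Pdk4 start are shown because the 5 chemicals include receptor ligands and receptor motifs can be looked for in this window. They lie at chr6:5496279-5496528 on the minus strand of GRCm38.p6, written along the gene, with capitals marking the 2 motifs found.

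Pdk4 promoter: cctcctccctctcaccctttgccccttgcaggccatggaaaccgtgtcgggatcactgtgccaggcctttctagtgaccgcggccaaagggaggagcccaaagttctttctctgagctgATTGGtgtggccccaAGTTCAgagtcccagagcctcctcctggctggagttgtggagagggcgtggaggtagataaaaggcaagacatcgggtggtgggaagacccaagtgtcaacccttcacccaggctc

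Both strands were searched. The first capitals, ATTGG, are a CCAAT box on the opposite strand, at positions -131 to -127 from the start. The second, AGTTCA, are a variant of the nuclear receptor core motif, at positions -116 to -111. Of the 32851 windows of this length in the table, 33.8% hold a CCAAT box and 11.8% hold AGTTCA, so neither is rare. The core motifs AGGTCA (14% of windows), GGGTCA (11.6%) and GGTTCA (8.85%) had no match in these letters. The direct repeat of AGGTCA spaced by 1 base, to which PPAR and RXR pairs bind (0.0335% of windows), and the palindromic glucocorticoid element (0.00913%) had none. The same held for the shorter glucocorticoid motif TGTTCT (16.1%), the forkhead motif GTAAACA (3.17%) and the TATA box, TATAAA (12.4%).

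Angptl4 had its lowest group means in naive cells (7.93) and day 1 vehicle (7.87). Its naive arrays read 7.86, 7.80, 7.81 and 8.27 in pools 12, 15, 19 and 20, and its day 1 vehicle arrays 7.67, 7.96, 7.92 and 7.92. The ranges overlapped. The change of -0.07 ± 0.18 (limma SE, n = 4 arrays per group) did not pass the test across all genes (limma, Benjamini-Hochberg adjusted p = 0.858), in a comparison that called 17.7% of genes.

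Pdk4, in contrast, read higher after the move to the inducing medium. Its naive arrays were 8.97, 8.90, 8.14 and 8.43, and its day 1 vehicle arrays 9.17, 9.41, 9.13 and 9.20. All 4 vehicle arrays lay above all 4 naive arrays. Pdk4 rose by 0.62 ± 0.18 (limma adjusted p = 0.0142), and 12.9% of the genes tested were called higher in the same comparison. The day 1 vehicle arrays also served the choice of genes, so this p is not independent of it. The rise was 0.20, 0.51, 0.99 and 0.77 in the 4 pools, largest where the naive reading was lowest. The call was lost without pool 19 (0.49, adjusted p = 0.170) or pool 20 (0.57, adjusted p = 0.123). Within arrays, Angptl4 moved by 0.68 less than Pdk4 in this step, in 4 of 4 pools. An exact two-sided permutation test of that difference, which does not pair arrays by pool, gave p = 0.0286. That is the smallest that 4 arrays against 4 allow, and it was 0.229 after adjustment over the 8 comparisons of this kind. With pairing, sign flips over 4 pools allow no exact p below 0.125, so a paired test could not pass. The permutation test uses the same day 1 vehicle arrays and carries the same limit.

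Genes known to answer glucocorticoids were higher in the same arrays. Of 15 such genes, 8 rose on day 1 in vehicle over naive cells and 0 fell, with a median of 0.57 against 0.05 over all genes tested. Of all genes, 12.9% were called higher there. Fkbp5, a chaperone that is induced by glucocorticoids, rose by 2.00 ± 0.21, and Per1, a clock gene, by 1.26 ± 0.11. By day 4 the list stood at 12 higher and 0 lower, with a median of 0.88, where 28.9% of all genes were called in either direction. Against naive cells, day 1 vehicle arrays had 0 higher and 2 lower of 13 FOXO target genes, the insulin-responsive set, and 0 higher and 6 lower of 13 hypoxia target genes, where 17.7% of all genes were called in either direction. The FOXO count is close to that share. The part of these programmes in the Pdk4 reading was not tested.

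By day 4 the vehicle arrays no longer lay together. Angptl4 read 9.45, 8.92, 8.00 and 7.92 in pools 12, 15, 19 and 20, a spread (SD 0.74) larger than in any other group. Pdk4 read 8.71, 9.45, 9.64 and 9.73, with the order of the pools turned round. Pools 12 and 15 thus held the higher Angptl4 and the lower Pdk4, and pools 19 and 20 were as low in Angptl4 as on day 1.

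Averaged over pools, Angptl4 in day 4 vehicle exceeded naive cells by 0.64 ± 0.18 (limma adjusted p = 0.00530, 28.9% of genes called) and day 1 vehicle by 0.70 ± 0.18 (adjusted p = 0.00604, 12.9% called). The comparison with day 1 vehicle uses arrays that also served the choice of genes, so its p is not independent of that choice. The same-pool change of Angptl4 from day 1 to day 4 was 1.78, 0.96, 0.08 and 0.00. Its SD over pools was 0.84, and 0.88 for the change from naive cells, while the ± values are the limma SE shared by all groups. Without the pool 12 array of day 4 vehicle both calls were lost, at 0.35 (adjusted p = 0.0828) and 0.41 (adjusted p = 0.0823), and without all arrays of pool 15 they were lost at 0.48 (adjusted p = 0.107) and 0.62 (adjusted p = 0.0670). Pdk4 in day 4 vehicle exceeded naive cells by 0.77 ± 0.18 (adjusted p = 0.00113) with that array and by 0.99 (adjusted p = 3.50e-05) without it, but the call was lost without pool 19 (0.53, adjusted p = 0.0869) or pool 20 (0.60, adjusted p = 0.0579). Its change from day 1 to day 4 vehicle, 0.15 ± 0.18, did not pass the test (adjusted p = 0.648), and without the pool 12 array it was 0.38 (adjusted p = 0.192).

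Hypoxia target genes moved with Angptl4 in these 4 arrays, and little outside them. With group means removed, the hypoxia list and Angptl4 had Pearson's r = 0.70 over all 52 arrays. Over the 48 arrays other than day 4 vehicle r was 0.16. Egln3, an oxygen-sensing prolyl hydroxylase, read 8.26, 6.38, 4.46 and 5.32 in pools 12, 15, 19 and 20. Bnip3, a mitophagy receptor, read 8.10, 7.14, 6.40 and 6.62, and Slc2a1, the glucose transporter GLUT1, 9.82, 8.88, 8.46 and 8.35. Plin2, another lipid droplet coat protein and a PPAR target, was also highest in pools 12 and 15, at 10.88, 10.23, 9.66 and 9.67. Plin1, the droplet protein of fat cells, ran the other way at 4.59, 6.28, 7.00 and 7.27. In the day 1 vehicle arrays Egln3 stayed between 4.64 and 5.08 and Plin1 between 4.26 and 4.92. The part of these genes in the Angptl4 and Pdk4 readings was not tested.

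**Figure D1:**
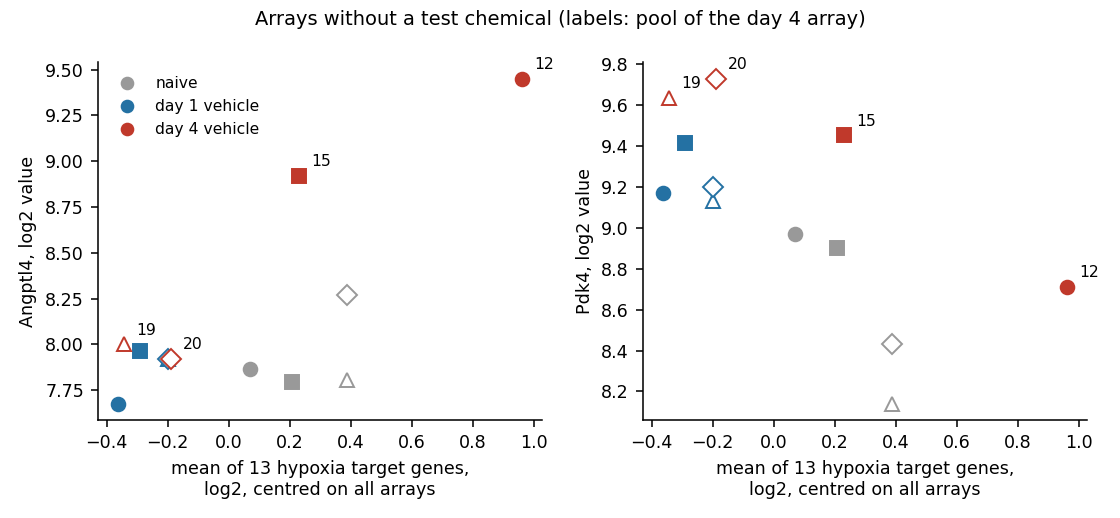
Log2 readings of Angptl4 (left) and Pdk4 (right) on the naive, day 1 vehicle and day 4 vehicle arrays, against the mean of 13 hypoxia target genes centred on all arrays. Each point is 1 array and the numbers name the pool of the day 4 vehicle arrays; the pool 12 array (0.96 on the horizontal axis) has the highest Angptl4 of the 12 (9.45) and the lowest Pdk4 of the 4 day 4 vehicle arrays (8.71).

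On day 1 every chemical came with a higher Angptl4 reading. With Rosi the arrays read 10.90, 10.64, 10.91 and 10.94, a difference from vehicle of the same pool of 2.98 ± 0.22 (SD over pools, n = 4), or 7.87-fold. TBT followed with 10.53, 10.63, 10.65 and 10.56 (2.73 ± 0.10, 6.61-fold). Both sets lay more than 2 units above any day 1 vehicle array, and these 2 groups overlapped each other only at the Rosi array of pool 15.

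The other 3 chemicals formed a lower tier. LG268 arrays read 9.92, 10.02, 10.12 and 10.17 (2.19 ± 0.09, 4.56-fold), and MEHP arrays 10.01, 9.94, 10.20 and 10.19 (2.22 ± 0.16, 4.64-fold). TPhP arrays read 9.66, 10.08, 9.85 and 9.99 (2.03 ± 0.08, 4.08-fold). The ranges of these 3 groups overlapped one another and lay below every Rosi and TBT array of that day. In same-pool differences, TBT exceeded LG268 by 0.54 ± 0.10, MEHP by 0.51 ± 0.13 and TPhP by 0.70 ± 0.17, each in 4 of 4 pools.

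Set among all 14911 genes, these differences were near the top of each list. Angptl4 had the largest rise of all with TBT and with TPhP, the second largest with MEHP (rank 2), rank 4 with LG268 and rank 16 with Rosi. The shares of genes called higher on day 1 were 4.16% with Rosi, 0.228% with LG268, 0.496% with TBT, 0.181% with TPhP and 0.362% with MEHP. Since Angptl4 was picked for this response, nothing is read from its place.

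Pdk4 on day 1 gave a different picture. With Rosi it read 9.34, 9.50, 9.12 and 9.10, against 9.17, 9.41, 9.13 and 9.20 with vehicle. The same-pool difference was 0.04 ± 0.12, with 2 pools higher and 2 lower. Rosi thus came with the largest Angptl4 difference of that day and with almost none in Pdk4.

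LG268 had the most even Pdk4 difference, with arrays at 9.58, 9.83, 9.39 and 9.47 and pool differences of 0.41, 0.42, 0.26 and 0.27. TBT gave 9.75, 9.74, 9.47 and 9.17, higher than vehicle in 3 of 4 pools by a mean of 0.31. MEHP (9.60, 9.50, 9.25 and 8.97) and TPhP (9.44, 9.44, 8.89 and 8.96) differed from vehicle by 0.10 ± 0.27 and -0.05 ± 0.24. In each of the 5 comparisons the arrays of Pdk4 with chemical and with vehicle overlapped.

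**Figure D2:**
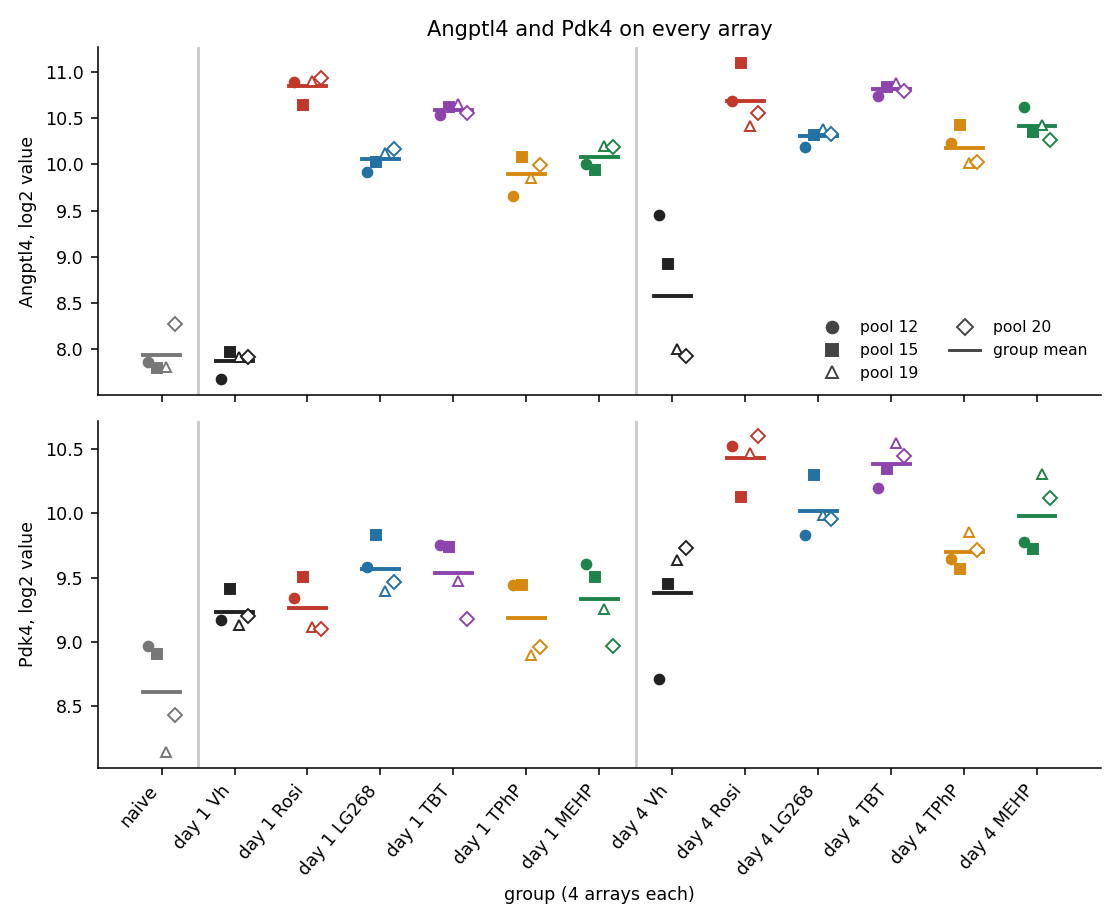
Log2 readings of Angptl4 (top) and Pdk4 (bottom) on all 52 arrays, by group along the horizontal axis. Symbols mark the pool and bars the mean of 4 arrays; Angptl4 with a chemical lies between 9.66 and 11.10 on both days, while Pdk4 passes 10 only on day 4.

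On day 4 Angptl4 was again high with every chemical. Rosi arrays read 10.69, 11.10, 10.42 and 10.56, and TBT arrays 10.74, 10.84, 10.88 and 10.80. LG268 arrays read 10.19, 10.32, 10.38 and 10.33, MEHP arrays 10.63, 10.35, 10.43 and 10.26, and TPhP arrays 10.24, 10.43, 10.02 and 10.03. All 20 of these arrays lay above all 4 vehicle arrays, the pool 12 array at 9.45 included. TBT was the most even (SD 0.06) and Rosi the least (SD 0.29).

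All 5 differences from vehicle passed the limma test, each in 4 of 4 pools. Here ± is the limma SE, which rests on 1 spread shared by all 13 groups. Day 4 vehicle spread more widely (SD 0.74), so this SE understates the uncertainty. Over pools, the SD of the same differences was 0.61 (TPhP) to 0.81 (LG268). Angptl4 rose by 2.24 ± 0.18 with TBT (adjusted p = 1.46e-12, 10.6% of genes called higher) and by 2.12 ± 0.18 with Rosi (adjusted p = 3.48e-13, 21.3% called higher). It rose by 1.84 ± 0.18 with MEHP (adjusted p = 1.81e-10, 12.1%), by 1.73 ± 0.18 with LG268 (adjusted p = 2.61e-09, 4.21%) and by 1.60 ± 0.18 with TPhP (adjusted p = 5.34e-09, 11%). By size of rise among the 14911 genes, Angptl4 stood at rank 31 with LG268, 59 with TBT, 116 with MEHP, 152 with TPhP and 237 with Rosi. Without the pool 12 vehicle array the rises were 1.90 with TPhP, 2.02 with LG268, 2.14 with MEHP, 2.41 with Rosi and 2.53 with TBT, all larger and all called.

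The rise of Angptl4 differed between pools, and most of that spread lay in the vehicle arrays. With LG268 it was 0.74, 1.40, 2.38 and 2.41 in pools 12, 15, 19 and 20, while the LG268 arrays themselves lay between 10.19 and 10.38. Set beside day 1, the mean response was smaller on day 4 for all 5 chemicals, but much of that lay in pool 12. For Rosi the change was -1.98, -0.50, -0.57 and -0.38 in the 4 pools, a mean of -0.86, or -0.48 without pool 12. For the other 4 the mean was -0.37 to -0.48, or -0.11 to -0.17 without pool 12, and the response was smaller in pools 12 and 15 and a little larger in pools 19 and 20. The arrays with chemical moved little between the days, from a same-pool change of -0.16 ± 0.43 with Rosi to 0.33 ± 0.23 with MEHP.

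Pdk4 showed its higher readings on day 4. Rosi arrays read 10.52, 10.13, 10.47 and 10.60 and TBT arrays 10.20, 10.35, 10.55 and 10.45, all above every vehicle array, of which the highest was 9.73. LG268 arrays (9.83, 10.30, 9.99 and 9.96) also lay above that value. MEHP arrays (9.78, 9.72, 10.31 and 10.12) and TPhP arrays (9.64, 9.57, 9.86 and 9.71) reached below it.

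Against day 4 vehicle Pdk4 rose by 1.05 ± 0.18 (limma SE) with Rosi (limma adjusted p = 4.97e-06). It rose by 1.00 ± 0.18 with TBT (adjusted p = 7.53e-05), in 4 of 4 pools each. The SD over pools was 0.52 with Rosi and 0.34 with TBT. These 2 calls held without the pool 12 vehicle array, at 0.82 (adjusted p = 0.000130) and 0.78 (adjusted p = 0.00116). With LG268 the difference was 0.64 ± 0.18 (adjusted p = 0.0243) and with MEHP 0.60 ± 0.18 (adjusted p = 0.0121). Both of these calls rested on that vehicle array, and without it the differences were 0.41 (adjusted p = 0.187) and 0.38 (adjusted p = 0.122). Without all arrays of 1 pool, the LG268 call was also lost for pool 12 (0.48), pool 15 (0.57) and pool 19 (0.73), and the MEHP call for pool 12 (0.44) and pool 19 (0.57). With TPhP the difference of 0.31 ± 0.18 did not pass (adjusted p = 0.250), with a 95% interval of -0.05 to 0.68, and without that vehicle array it was 0.09 (adjusted p = 0.804).

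Angptl4 thus passed in 5 of 5 comparisons with vehicle and Pdk4 in 4 of 5, or in 2 of 5 without the pool 12 vehicle array. On the 5 chemicals, 49.1% (Rosi), 6.47% (LG268), 20.1% (TBT), 18.9% (TPhP) and 23.8% (MEHP) of all genes were called in either direction. A call with Rosi was thus shared with nearly as many genes as not, and a call with LG268 with far fewer.

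Taken over the days, the Pdk4 response grew. It was larger on day 4 than on day 1 by 1.01 ± 0.45 (SD over pools) with Rosi, 0.70 ± 0.16 with TBT, 0.50 ± 0.22 with MEHP and 0.36 ± 0.25 with TPhP, each in 4 of 4 pools, and by 0.30 ± 0.34 with LG268 in 3 of 4. Pool 12 had the largest change for all 5, and without it the means were 0.80, 0.63, 0.45, 0.26 and 0.16. These changes use the day 1 arrays and are described without a test. Within arrays, the day 4 rise of Angptl4 exceeded that of Pdk4 by 1.07 (Rosi) to 1.29 (TPhP), with an SD over pools of 0.83 (MEHP) to 1.23 (LG268). The excess was positive in 4 of 4 pools with MEHP and in 3 of 4 with each other chemical. The exact permutation p, without pairing by pool, was 0.114 to 0.2 and none passed after adjustment over 8 comparisons (0.229 to 0.267). Without pool 12 it was 1.59 (LG268) to 1.77 (TPhP), with an adjusted exact p of 0.133 for all 5. The smallest exact p that 3 arrays against 3 allow is 0.1, so that test could not pass and decides nothing. On day 1 the same excess was 1.85 (LG268) to 2.94 (Rosi), positive in 4 of 4 pools for all 5 chemicals.

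**Figure D3:**
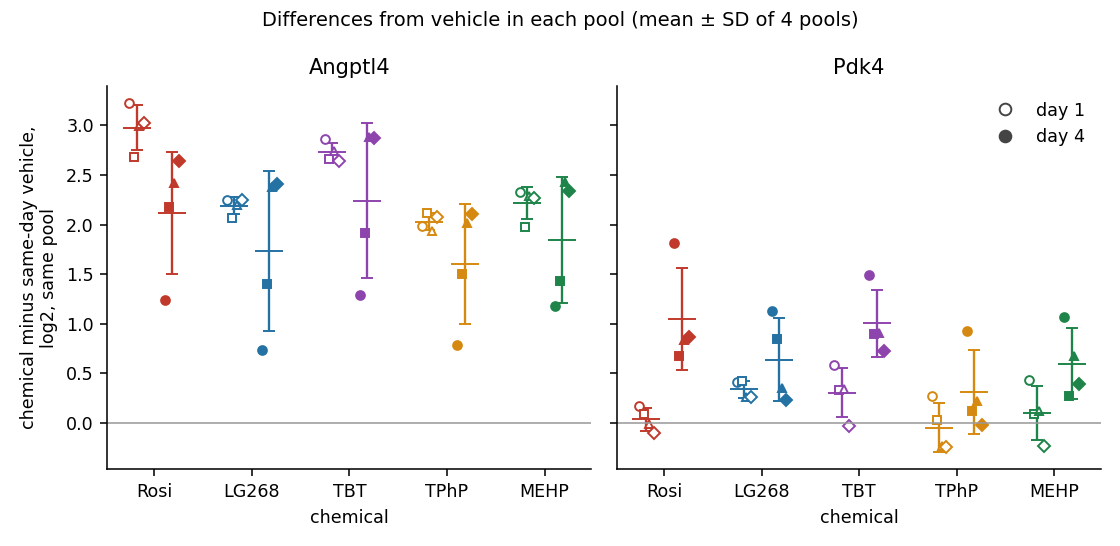
Differences between each chemical and vehicle of the same day and pool, in log2 units, for Angptl4 (left) and Pdk4 (right). Open symbols are day 1, filled symbols day 4, 4 pools from left to right (12, 15, 19, 20), and bars give mean ± SD; Angptl4 has a larger mean difference on day 1 (2.98 with Rosi) than on day 4 (2.12), where its pools spread widely, and Pdk4 is near 0 with Rosi on day 1 (0.04) and at 1.05 on day 4.

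Differences between pairs of chemicals on day 4 do not involve the vehicle arrays, which enter only the shared estimate of spread. Of the 10 pairs, 2 passed for each gene, and they were the same pairs. Over all genes the share called ran widely, at 47.8% for Rosi against LG268, 38.1% against TBT and 26.1% against MEHP. It was 18.3% for LG268 against TPhP, 21.1% against MEHP and 3.35% against TBT, 1.97% for TBT against MEHP and 0.0134% for TPhP against MEHP. Angptl4 was higher with Rosi than with TPhP by 0.51 ± 0.18 (limma adjusted p = 0.0261, 28.2% of genes called) and higher with TBT than with TPhP by 0.64 ± 0.18 (adjusted p = 0.0427, 2.31% called). Pdk4 was higher in these pairs by 0.73 ± 0.18 (adjusted p = 0.00199) and 0.69 ± 0.18 (adjusted p = 0.0301). All 4 differences had the same sign in 4 of 4 pools. In Pdk4 the Rosi and TBT arrays lay wholly above the TPhP arrays.

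These calls were close to the threshold. With only the arrays compared in the fit, the Angptl4 pairs gave adjusted p = 0.0934 and 0.0570, and the TBT to TPhP pair of Angptl4 gave 0.0613 with no filter on low genes. Leaving out pool 15, 19 or 20 lost both Angptl4 pairs and the TBT to TPhP pair of Pdk4 (adjusted p up to 0.313 and 0.204), while the Rosi to TPhP pair of Pdk4 passed without each pool (0.68 to 0.79). No other pair passed in the fit to all arrays. The difference between Rosi and TBT was -0.12 for Angptl4 (95% interval -0.48 to 0.23) and 0.04 for Pdk4 (-0.32 to 0.41). Between TPhP and MEHP it was -0.24 (-0.60 to 0.12) and -0.29 (-0.65 to 0.08). Angptl4 with LG268 minus TBT was -0.51 (-0.87 to -0.15), lower in 4 of 4 pools with ranges apart, and did not pass after adjustment (adjusted p = 0.114). It passed with only the arrays compared in the fit (adjusted p = 0.0133) and without the pool 12 vehicle array (adjusted p = 0.0276). Rosi minus LG268 was 0.39 for Angptl4 and 0.41 for Pdk4, and both passed with cyclic loess between arrays (adjusted p = 0.0209 and 0.0190) and without that vehicle array (0.0210 and 0.0344). For Pdk4 it also passed with a stricter filter (0.0462), with only the arrays compared (0.0362) and without pool 15 (0.0183). Rosi minus MEHP for Pdk4 was 0.45 and passed with loess (0.0351), the stricter filter (0.0462) and without that vehicle array (0.0355).

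Ordered by mean, Angptl4 had a single clear gap. From the lowest, the groups ran day 1 vehicle, naive and day 4 vehicle (8.57), and then, 1.33 higher with ranges apart, day 1 TPhP (9.90), LG268 and MEHP, day 4 TPhP, LG268 and MEHP, day 1 TBT (10.59), day 4 Rosi, day 4 TBT and day 1 Rosi (10.85). All other neighbours in this order overlapped. Pdk4 climbed in small steps from naive (8.61) through the day 1 groups and day 4 vehicle (9.18 to 9.57) to day 4 TPhP (9.69), MEHP, LG268, TBT and Rosi (10.43), and every neighbouring pair overlapped. The 2 genes' means had Pearson's r = 0.67 and Spearman's rho = 0.63 over the 13 groups, whose arrays share the same 4 pools. Within groups they ran the other way: with group means removed, r was -0.53 (rho -0.45) over the 52 arrays, and -0.34 (rho -0.38) over the 48 arrays other than day 4 vehicle. Both are descriptions without a test.

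Genes with profiles most like each member were ranked among 3861 genes whose group means spanned at least 1 log2 unit, by Pearson's r over the 13 groups. For Angptl4 they were Fabp4, a fatty acid carrier of fat cells (0.92), Trarg1, a partner of the glucose transporter GLUT4 (0.91), Lamb1, a laminin chain (0.91), Arhgap29 (0.90), and Atp13a3, a transport ATPase (0.90). Pdk4 stood at rank 209 in that list. For Pdk4 they were Slc22a5, the carnitine transporter (0.96), Il15ra, a cytokine receptor chain (0.94), Cyp2u1, a cytochrome P450 (0.94), Klf9, a transcription factor induced by glucocorticoids (0.94), and Usp53 (0.93). Angptl4 stood at rank 1080 there. With group means removed, r with Angptl4 was -0.06 (Fabp4), -0.37 (Trarg1), -0.34 (Lamb1), -0.54 (Arhgap29) and -0.45 (Atp13a3). For Pdk4 it was 0.47 (Slc22a5), -0.04 (Il15ra), 0.74 (Cyp2u1), 0.30 (Klf9) and 0.41 (Usp53). The likeness to Angptl4 thus lay between groups and not within them.

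The profiles differ in when they move. Fabp4 exceeded vehicle by 1.23 to 2.62 on day 1 and by 1.54 to 2.31 on day 4, both days high as for Angptl4. Slc22a5 exceeded vehicle by 0.08 to 0.32 on day 1 and by 0.40 to 0.95 on day 4, and Klf9 by 0.07 to 0.29 and by 0.37 to 0.67. Since profiles were ranked on the same arrays that define the members' pattern, the likeness is a description.

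**Figure D4:**
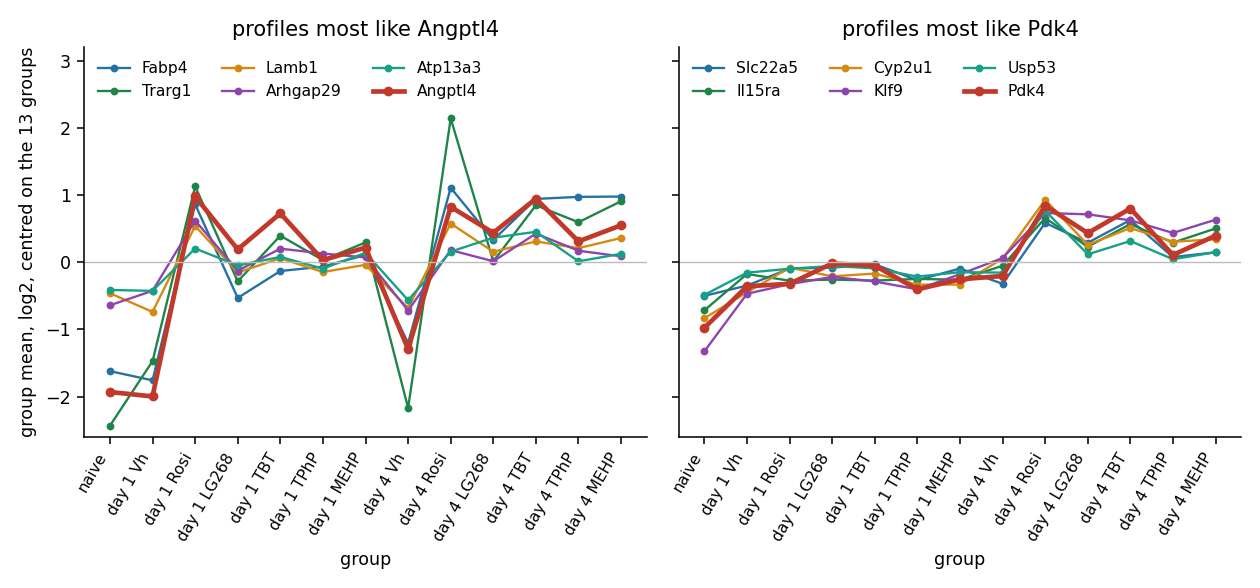
Group means of Angptl4 (left) and Pdk4 (right, thick red lines) with the 5 genes whose means followed each most closely, in log2 units centred on the 13 groups. Each gene of the Angptl4 set is lower in the 3 groups without a chemical than in any other group, though some lie below 0 with a chemical on day 1. The Pdk4 set rises from naive cells to day 4.

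Pdk4 belongs to a family of 4 kinases that act on the same enzyme complex and are opposed by the phosphatases Pdp1 and Pdp2 and their regulator Pdpr. On day 4 the relatives moved in different directions. Pdk2 rose by 2.26 ± 0.24 with Rosi (limma adjusted p = 2.44e-10), by 1.29 with TBT, 1.40 with TPhP and 1.45 with MEHP, and with LG268 it differed by 0.58 without passing (adjusted p = 0.156). With TPhP, where Pdk4 did not pass, the kinase that rose was therefore Pdk2.

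Pdk1, which hypoxia is known to raise, rose with Rosi (0.68 ± 0.16) and MEHP (0.58 ± 0.16). It fell by 0.91 ± 0.16 from naive cells to day 1 vehicle, the step in which Pdk4 rose. Pdk3 fell by 0.77 ± 0.10 with Rosi and by 0.34 ± 0.10 with MEHP. Among the phosphatases, Pdp1 fell with Rosi (-1.28), TBT (-0.69), TPhP (-0.81) and MEHP (-0.85), whereas Pdpr rose with the same 4 (0.65 to 1.46) and Pdp2 with Rosi (0.86) and MEHP (0.46). Without the pool 12 vehicle array the call of Pdp1 with TBT was lost (-0.59, adjusted p = 0.0558), and Pdk3 with TBT (-0.31, adjusted p = 0.0354) and Pdk1 with TPhP (0.47, adjusted p = 0.0248) were called. On day 1 no gene of the kinase and phosphatase group was called with any chemical, but with the pools as a block Pdk2 (limma adjusted p = 0.0410), Pdp1 (0.0353) and Pdpr (0.0246) were called with Rosi.

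The rest of the pyruvate branch was higher on day 4. Of 15 tested genes, which leave out Pdk4 and hold the complex's subunits, kinases, phosphatases, pyruvate carriers, pyruvate carboxylase and lactate dehydrogenases, 13 rose and 2 fell with Rosi (median 1.52, all genes -0.05). With MEHP 13 rose and 2 fell (median 1.10), with TPhP 11 and 1 (0.99), with TBT 10 and 1 (0.82), and with LG268 1 and 0 (0.19). Of all genes, 49.1% (Rosi), 23.8% (MEHP), 18.9% (TPhP), 20.1% (TBT) and 6.47% (LG268) were called in either direction. Pcx, pyruvate carboxylase, which feeds the citric acid cycle beside the complex, led with rises of 4.22 (Rosi), 3.53 (MEHP), 3.38 (TPhP), 3.08 (TBT) and 1.30 (LG268). The subunits Dlat and Pdhb rose by 2.55 and 2.37 with Rosi. Without the pool 12 vehicle array the call of Pcx with LG268, the only one of the list, was lost (1.08, adjusted p = 0.0763). On day 1 Pcx, with Rosi, was the only gene of the list called, where 4.16% of all genes were called higher. With the pools as a block 5 were called with Rosi, and Pcx was called with TBT (adjusted p = 0.00170), TPhP (0.00353) and MEHP (0.000214) as well.

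Of the ANGPTL relatives, Angptl8, which works with other members on lipoprotein lipase, stayed within 0.17 of vehicle on day 1. On day 4 it rose by 2.13 ± 0.30 with MEHP (limma adjusted p = 7.81e-07), 1.96 ± 0.30 with Rosi, 1.80 with TPhP and 1.47 with TBT. With LG268 it differed by 0.17 (adjusted p = 0.827), whereas Angptl4 rose there by 1.73. Angptl7 had group means between 4.40 and 4.83, close to the table median, and fell by 0.43 with Rosi (adjusted p = 0.0232). Angptl1 was set aside as too low to test, and Angptl2 and Angptl6 were not analysed here.

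**Figure D5:**
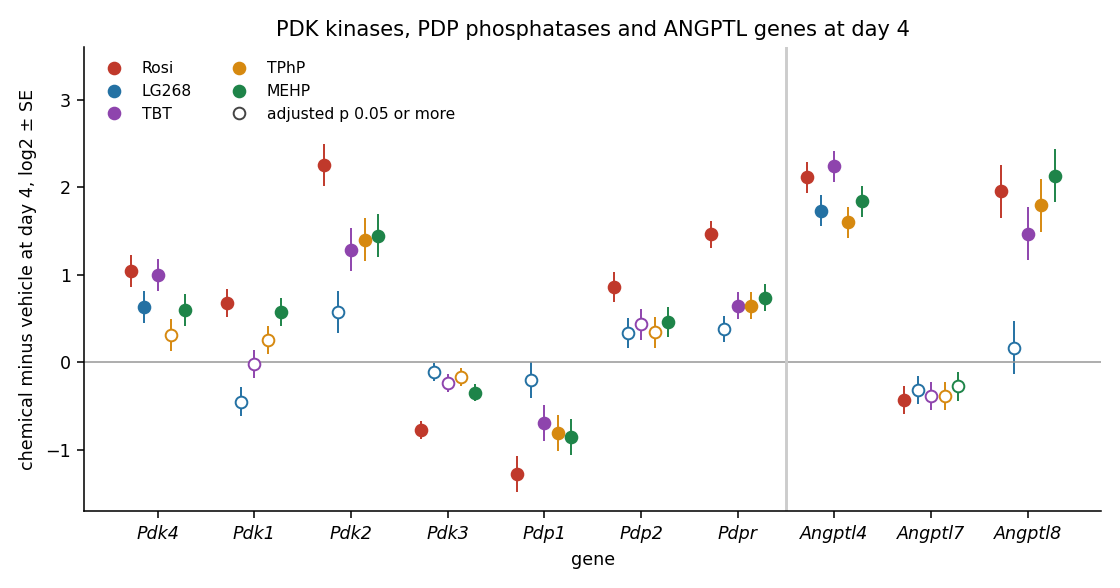
Differences between chemical and vehicle on day 4 (log2, limma difference ± SE, n = 4 arrays per group) for the PDK kinases, the PDP phosphatases and the ANGPTL genes tested. Filled points have an adjusted p under 0.05; Pdk2 and Angptl8 rise with 4 of the 5 chemicals and Angptl4 with all 5.

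Among 13 genes of the lipoprotein lipase axis, the target of Angptl4, the enzyme itself, Lpl, rose on day 4 with all 5 chemicals, by 0.77 (LG268) to 1.10 (Rosi). Cd36, a fatty acid receptor, rose with them too, by 0.76 (LG268) to 2.15 (Rosi). The counts of higher and lower were 5 and 3 with Rosi, 6 and 2 with TBT, 5 and 1 with MEHP, 4 and 1 with TPhP and 3 and 1 with LG268, with medians from -0.04 to 0.52. Of all genes, 49.1% (Rosi), 20.1% (TBT), 23.8% (MEHP), 18.9% (TPhP) and 6.47% (LG268) were called in either direction. The calls with Rosi were not far above that share. On day 1 they were 2, 2, 3, 1 and 2 higher with Rosi, LG268, TBT, TPhP and MEHP and 0 lower. In the same order, 4.16%, 0.228%, 0.496%, 0.181% and 0.362% of all genes were called higher.

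Of 19 fatty acid oxidation genes known as PPAR targets, 12 rose on day 1 with Rosi, 2 with LG268, 4 with TBT, 3 with MEHP and 0 with TPhP. On day 4, 16 rose with each of Rosi (median 2.14), TBT (0.95), TPhP (1.22) and MEHP (1.44), and 5 with LG268 (0.37). None of the 19 fell in any of these comparisons. Of all genes, 4.16% (Rosi), 0.228% (LG268), 0.496% (TBT), 0.362% (MEHP) and 0.181% (TPhP) were called higher on day 1. The day 4 shares were 21.3% (Rosi), 10.6% (TBT), 11% (TPhP), 12.1% (MEHP) and 4.21% (LG268). With TPhP the 0 limma calls of day 1 stand beside a median of 0.28 against 0.00 over all genes, and beside 3 calls with the pools as a block.

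Fat cell genes and RXR partner targets split the chemicals in other ways. Shares of all genes called higher on day 1 were 4.16% (Rosi), 0.228% (LG268), 0.496% (TBT), 0.181% (TPhP) and 0.362% (MEHP). On day 4 they were 21.3%, 4.21%, 10.6%, 11% and 12.1% in the same order, and 49.1% were called in either direction with Rosi. These shares stand beside each list of this paragraph. Of 23 fat cell genes, 20 (Rosi), 4 (LG268), 10 (TBT), 7 (TPhP) and 9 (MEHP) rose on day 1, and 23, 14, 21, 23 and 23 on day 4. With the pools as a block the LG268 count of day 1 was 10. Of 13 LXR target genes, 9 rose with LG268 and 9 with TBT on day 1, against 5 with Rosi, 1 with MEHP and 0 with TPhP (2 with the pools as a block), and on day 4 the counts were 11, 11, 7, 6 and 7, with 5 falling with Rosi. Of 14 nuclear receptor and coregulator genes, 12 rose on day 4 with Rosi, 9 with TPhP, 9 with MEHP, 8 with TBT and 2 with LG268. Pparg, the PPARγ gene, rose on day 4 by 1.24 ± 0.14 with Rosi and 1.23 ± 0.14 with TPhP, and Ppargc1a, a coactivator that read 3.22 in vehicle, below the table median, by 4.65 ± 0.30 with Rosi.

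Of the FOXO targets 6 rose and 3 fell with Rosi on day 4. With LG268 3 rose and 0 fell, with TBT 5 and 1, with TPhP 5 and 0 and with MEHP 5 and 2, where 49.1%, 6.47%, 20.1%, 18.9% and 23.8% of all genes were called in these 5 comparisons. Of the glucocorticoid genes, 2 rose with Rosi on day 1, where 4.16% of all genes were called higher, and 0 with the other 4 chemicals. On day 4, 5 rose and 4 fell with Rosi, 1 and 0 with LG268, 3 and 1 with TBT, 4 and 0 with TPhP and 5 and 1 with MEHP, out of 15 and against the same shares of all genes. With LG268 4 were called with the pools as a block, and 2 without the pool 12 vehicle array. Of the hypoxia genes 7 rose and 4 fell with Rosi, 5 and 1 with MEHP, 2 and 1 with TPhP, 0 and 2 with TBT and 0 and 3 with LG268, out of 13 and against the same shares of all genes. Without the pool 12 vehicle array the calls in either direction were 9, 7, 7, 3 and 1 in the same order. The day 4 vehicle arrays of pools 12 and 15, part of the baseline, had higher means of that list (0.96 and 0.23) than pools 19 and 20. The part of the hypoxia genes in the Angptl4 differences was not tested.

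Cell markers also differed between the groups. The sum of 7 fat cell markers, on a log2 scale, ran from 7.59 to 7.94 in day 1 vehicle and from 8.45 to 10.26 in day 4 vehicle. On day 4 it ran from 13.05 to 13.51 with Rosi, 12.11 to 13.31 with MEHP and 12.09 to 13.36 with TPhP. With TBT it ran from 11.69 to 12.90 and with LG268 from 10.36 to 11.31. TPhP, with the lowest day 4 means of Angptl4 and Pdk4 among the chemicals, thus had a higher mean sum (12.85) than TBT (12.52). On day 1 the TBT arrays were at 8.42 to 8.76 and the TPhP arrays at 8.39 to 9.15, both above every day 1 vehicle array. MEHP arrays of that day were at 8.86 to 10.02, LG268 arrays at 8.26 to 10.33 and Rosi arrays at 10.74 to 11.10. The stromal sum was 12.61 to 13.09 with Rosi on day 4 against 13.18 to 14.01 with vehicle, and all 9 macrophage markers fell with Rosi. Of the 9 stromal markers 6 fell with Rosi, 3 with TPhP and 2 with MEHP, while 3 rose with LG268, and with TBT 2 rose and 2 fell. Osteoblast markers fell in 6 of 8 with Rosi, 5 with TBT, 5 with MEHP, 4 with TPhP and 1 with LG268, and osteoclast markers in 4, 5, 4, 4 and 3 of 6. Of 6 endothelial markers 6 rose with TBT, 4 with MEHP, 2 with LG268 and 1 with Rosi, and of 8 neutrophil markers 5 fell with LG268 and 4 with TBT. Of all genes, 49.1% (Rosi), 6.47% (LG268), 20.1% (TBT), 18.9% (TPhP) and 23.8% (MEHP) were called in either direction on day 4. The part of these marker shifts in the Angptl4 and Pdk4 readings was not tested.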

How the data were processed

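Each of the 52 cultures was read on an Affymetrix Mouse Gene 2.0 ST array, with 4 cultures per group. Values were used on the log2 scale on which the authors deposited them, for 41345 probe sets, and were made with R 3.3.1 and the oligo package per the submitters' processing notes, and the normalization method is not given in the sources used here. Probe sets annotated to 1 gene symbol were kept (23521, against 1814 with several and 16010 unnamed here), with the highest-mean probe set per gene, giving 22180 genes. Genes above the table median (4.05) on at least 4 arrays were tested (14911, with 7269 set aside). Differences were tested with limma 3.58.1 in R 4.3.3 on all 13 groups (39 residual degrees of freedom), with Benjamini-Hochberg adjustment over all genes tested and a threshold of 0.05. The fit was tested on simulated data. Figures and exact permutation tests used Python 3.11.15, scipy 1.17.1 and matplotlib 3.10.9.

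The named genes are Angptl4 and Pdk4, their kinase, phosphatase and ANGPTL relatives, the leading genes of each pathway list, and the 5 genes with the most similar profile to each. The members and the lists were chosen with earlier results of these data known. Pool numbers in the labels mark shared cells, and they pair the arrays: the median correlation of residuals was 0.219 for arrays of the same pool and -0.0874 otherwise, and 45 of 52 arrays were closest to their own pool. Alternatives were leaving out each pool, blocking on the pool, a fit to the compared arrays alone, cyclic loess, averaging a gene's probe sets, and no filter or a stricter one (above 6.34, the table's upper quartile). Leaving out the day 4 vehicle array of pool 12 was chosen after seeing the data. The number of arrays limits the precision.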

Additional observations from a re-analysis of the deposited data

Results flagged for a closer look

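Among the 26 sets of 4 arrays (2 genes in 13 groups), 3 had 1 array far from the other 3, all in Angptl4. Chance alone marks about 1 set in 20. The naive array of pool 20 read 8.27 against 7.80 to 7.86 in the others, and the day 1 vehicle array of pool 12 read 7.67 against 7.92 to 7.96. With Rosi on day 1 the pool 15 array read 10.64 against 10.90 to 10.94. The naive and vehicle arrays stayed below every array with a chemical, and the Rosi array stayed above every array without one.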

How the results depend on the processing

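The Angptl4 differences between each chemical and vehicle on day 4 passed under every alternative run, from 1.44 (TPhP) to 2.56 (TBT) when 1 pool was left out, and so did Pdk4 with Rosi (0.79 to 1.17) and TBT (0.84 to 1.10). With only the arrays compared in the fit, 7 calls were lost with the same differences: Angptl4 in Rosi over TPhP (0.51, limma adjusted p = 0.0934) and TBT over TPhP (0.64, 0.0570), Angptl4 in day 4 vehicle over naive (0.64, 0.206) and over day 1 vehicle (0.70, 0.222), and Pdk4 with LG268 (0.64, 0.171), with MEHP (0.60, 0.165) and in day 4 vehicle over naive (0.77, 0.0750). Leaving out 1 pool moved the last 5 to 0.32 to 0.97, 0.35 to 0.94, 0.48 to 0.77, 0.44 to 0.71 and 0.53 to 1.11, and Pdk4 in day 1 vehicle over naive to 0.49 to 0.76. Without the day 4 vehicle array of pool 12, chosen after seeing the data, the calls lost were Angptl4 over naive (0.35) and over day 1 vehicle (0.41) and Pdk4 with LG268 (0.41) and MEHP (0.38). With the pools as a replicate block the 46 differences of the 2 genes could not change, because each pool gave 1 array to every group. Averaging probe sets could not change them either, because each gene had 1 probe set. In the block fit the differences that were tested, which leaves out day 1 against vehicle, kept their side of the threshold. Examples are Pdk4 with LG268 (limma adjusted p = 0.0182) and MEHP (0.0106). The counts of all genes called fell by over 1.5 times in 18 of 23 comparisons without pool 19 and in 20 without pool 20, and 65 and 80 of the counts over pathway lists fell likewise. The block raised the day 1 counts from 36 to 68 (LG268), 81 to 171 (TBT), 32 to 71 (TPhP) and 78 to 176 (MEHP), and the day 4 LG268 count from 965 to 1590. No called difference of the 2 genes changed sign. Uncalled ones near 0 did when 1 pool was left out: Angptl4 in day 1 vehicle over naive (-0.14 to 0.03), and Pdk4 in LG268 minus MEHP (-0.14 to 0.16, and below 0 with cyclic loess), Rosi minus TBT (-0.05 to 0.13) and, on day 1, TPhP (-0.15 to 0.02), Rosi (-0.01 to 0.08) and MEHP (-0.01 to 0.22) minus vehicle. The cause of the lost calls was not tested.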
